A study of Fagopyrum tataricum with 9 samples.

Results

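Abscisic acid is the plant hormone that drives seed filling, desiccation tolerance and dormancy. It is made from carotenoids. Zeaxanthin epoxidase forms violaxanthin in the plastid, 9-cis-epoxycarotenoid dioxygenase (NCED) cuts the carotenoid to xanthoxin in what is usually the limiting step, and xanthoxin dehydrogenase and abscisic-aldehyde oxidase finish the hormone in the cytosol. Abscisic acid 8'-hydroxylases break it down, so the level of the hormone depends on both ends of the pathway.

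The genes described here were the 9 that a list of gene IDs named for these 4 steps, of 33931 genes in all, and each was named after its best Swiss-Prot protein match in the deposited gene table. There were 3 epoxidase matches, 3 NCED matches, 1 xanthoxin dehydrogenase match and 2 aldehyde oxidase matches. The same names occur on 6 further genes, which are described separately below.

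RNA was sequenced from seeds of Tartary buckwheat (Fagopyrum tataricum), variety MIQIAO 1, an easily dehulled form. All 9 libraries came from this variety grown in the field without any treatment. They fell into the stages green fruit, discoloration and initial maturity, of 3 libraries each. The labels give sampling days of 13, 19 and 25 days post anthesis without tying a day to a stage name, and the days are taken here to follow the order of development. Per the labels, each plant gave seeds at all 3 stages and seeds of 3 plants made up the replicates of a stage. No label says which library came from which plant, so libraries of the same plant could not be paired, and the tests treat the stages as independent samples. Whole seeds were used.

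Library depth ran from 21585045 to 26777643 counts. Seed storage genes (16 globulin, albumin, vicilin and oleosin matches) summed to 16608 to 58775 CPM in green fruit, 240020 to 260829 at discoloration and 245937 to 361050 in seeds of initial maturity, where CPM are counts adjusted for library size and composition by the TMM method. The 21 green tissue genes (chlorophyll-binding and Rubisco small subunit matches) summed to 1663 to 3890, 608 to 865 and 58.5 to 70.1 CPM. Genes named for seed coat tannin synthesis and transport (66 matches) summed to 466 to 692, 954 to 1112 and 753 to 797 CPM, and 19 pollen-named genes to 297 to 376, 201 to 224 and 235 to 258 CPM. The seed coat sum does not stand for each of its genes, of which 33 were tested and 11 had no count. From green fruit to initial maturity 9 of the 33 rose and 18 fell (edgeR, adjusted p under 0.05), with a median log2 change of -1.43. Of all tested genes 28.3% rose and 32.5% fell. In the whole seed, fewer cells of a type and less RNA per cell cannot be told apart. The part of these tissue shifts in the results below was not tested.

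Within each stage a pair of libraries was closely similar (chi-square per degree of freedom of 1.98 to 3.54 over genes), and the remaining library stood apart from it, with values of 42.5 to 255. The libraries apart were green fruit 1, discoloration 1 and initial maturity 2. Green fruit library 1 had more storage and less green tissue expression than its pair, with 58775 CPM against 16608 and 17209 for storage genes and 1663 against 3679 and 3890 for green tissue genes. In library 1 of discoloration 7 of the 9 genes lay above both others of the stage, at up to 2.80 times the mean of the pair, and 2 lay below. In green fruit library 1, 3 of the 9 lay above and 5 below. In initial maturity library 2, 4 lay above and 4 below. The share of all genes that lay above or below was not counted.

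The scale of the values matters in these data. TMM scaling sets the bulk of genes equal between stages, whereas the deposited FPKM values (fragments per length and library size) divide by the library total. The 16 storage genes held 3.04 to 8.80% of all counts in green fruit, 21.1 to 21.5% at discoloration and 15.6 to 24.9% at initial maturity. Scaling by library totals moved the median log2 change of all tested genes to -1.03 for discoloration against green fruit, -0.37 for initial maturity against discoloration and -1.39 for initial maturity against green fruit. Under TMM those medians were -0.04, -0.02 and -0.06. Each result below is therefore given on TMM-scaled counts, with FPKM beside it where the direction differs, and shares and ratios between genes of the same library are free of this choice.

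Between green fruit and discoloration 6 of the 9 genes rose and none fell (edgeR, adjusted p under 0.05), against 39.5% of 23631 tested genes called in either direction, 19.5% called higher and 19.9% lower. The median log2 change of the 9 was 1.22. Between discoloration and initial maturity 4 rose and 1 fell, against 36.4% of all genes called, 16% higher and 20.4% lower, and the median was 0.58. From green fruit to initial maturity 7 rose and 1 fell, against 60.8% of all genes called, 28.3% higher and 32.5% lower, with a median of 1.90. Over the 3 stages all 9 genes differed (F test), as did 65.4% of all genes. The libraries of the 2 stages did not overlap for 7, 6 and 8 of the 9 genes in the 3 comparisons, against 54.2%, 58.5% and 66.1% of all genes. The 3 comparisons share libraries and are not independent of each other.

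These counts rest on the scaling. With library totals only, 2 genes rose and 1 fell in the first comparison, 2 rose and 1 fell in the second, and 4 rose and 1 fell over the whole interval. On that scale 7.74% of all genes were called higher and 68.3% lower in the first comparison, 7.98% and 30.4% in the second, and 8.86% and 73.7% over the whole interval. Of the 27 changes (9 genes, 3 comparisons), 7 were called under TMM and past the threshold under all 18 alternatives tried. They were the rise of the CTF2B-annotated epoxidase match in the first comparison and over the whole interval, the late fall of the ABA1-annotated epoxidase match on chromosome 3, the rise of the chromosome 4 NCED gene in the second comparison and over the whole interval, the early rise of the main aldehyde oxidase gene, and the rise of xanthoxin dehydrogenase over the whole interval. Each is described with its values below. How many changes of all tested genes held in this way was not counted, so 7 of 27 cannot be called many or few.

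**Figure D1:**
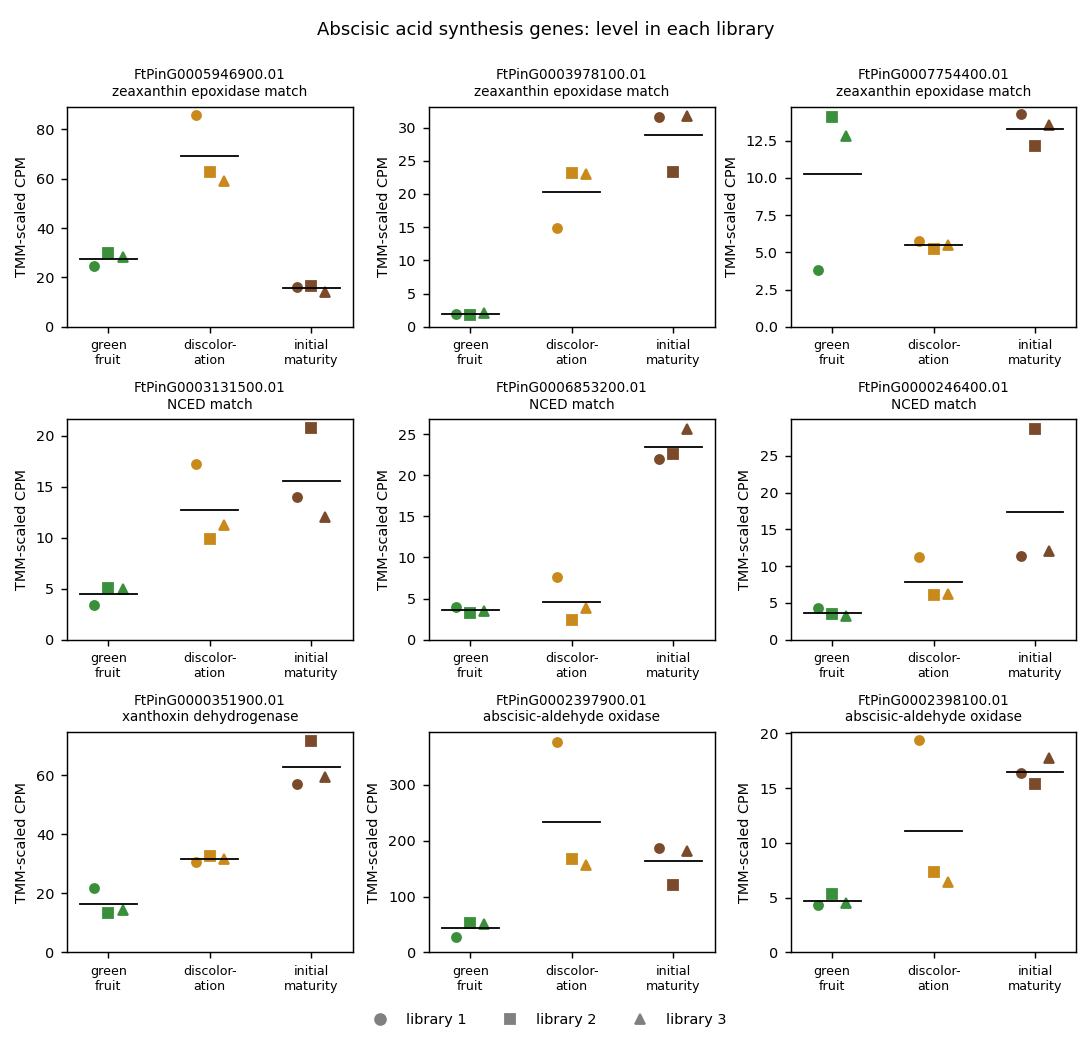
TMM-scaled CPM of the 9 genes in each library, with a separate vertical axis for each gene. Symbols mark library numbers, which no label ties to a plant, and black lines are means of 3 libraries. FtPinG0005946900.01 is highest at discoloration, FtPinG0006853200.01 stands out at initial maturity and FtPinG0000351900.01 is higher at each later stage.

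**Figure D2:**
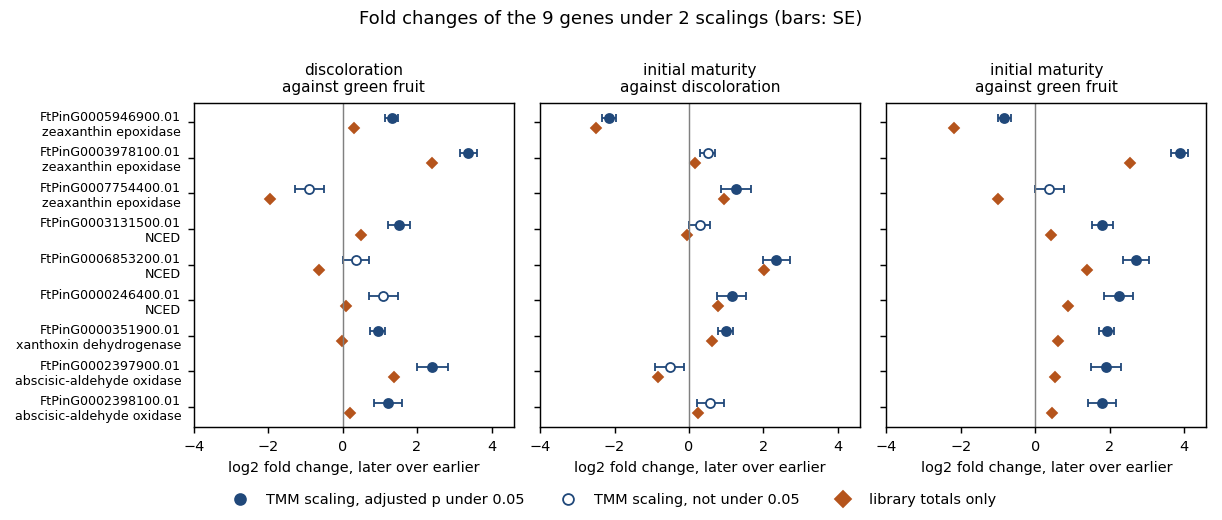
Log2 fold changes of the 9 genes in the 3 comparisons of stages. Circles with SE bars are from TMM-scaled counts, filled where the adjusted p is under 0.05, and diamonds are from library totals only. The diamonds lie lower in all 27 cases, by about 1 in the first comparison.

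The 3 epoxidase matches changed in 3 different ways. FtPinG0007754400.01 (chromosome 6, 17760190 to 17764094) was the only full-strength match, with an E value of 0 to a tobacco epoxidase. Its levels were 3.82, 14.1 and 12.8 CPM in green fruit libraries 1 to 3, 5.76, 5.24 and 5.51 at discoloration and 14.3, 12.1 and 13.5 at initial maturity. It was low at discoloration and in green fruit library 1 alone of its stage. The fall to discoloration, a log2 change of -0.90 (SE 0.39, adjusted p = 0.0991), did not pass the test with all libraries. Without green fruit library 1 it was -1.28 (adjusted p = 6.6e-05), but the close pair is then left and its small spread enters that p-value. In that fit 51.4% of all genes were called in this comparison, against 39.5% with all libraries. With library totals the change to discoloration was -1.94 (adjusted p = 0.00391). The rise that followed passed the test (1.27, SE 0.40, adjusted p = 0.0338), and lost its call with library totals (adjusted p = 0.13) and when any 1 discoloration or initial maturity library was left out (adjusted p of 0.0644 to 0.101). Over the whole interval the change was 0.38 (SE 0.39, adjusted p = 0.422), and -1.01 with library totals (adjusted p = 0.0558).

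FtPinG0005946900.01 (chromosome 3, 46397782 to 46402567) was assigned to the epoxidase gene ABA1 by the deposited pathway annotation, but its protein match was partial or distant, with an E value of 1.1e-24. It was counted at 24.8, 29.9 and 28.1 CPM in green fruit, 85.7, 62.6 and 59.0 at discoloration and 16.1, 16.4 and 14.2 at initial maturity. The 3 stages did not overlap. The late fall was a log2 change of -2.15 (SE 0.18, adjusted p = 1.8e-04) and stayed between -1.97 and -2.49 under all alternatives. The early rise of 1.32 (SE 0.17, adjusted p = 5.4e-04) was 0.32 with library totals (adjusted p = 0.152). From green fruit to initial maturity the change was -0.83 (SE 0.17, adjusted p = 0.00269), or -2.18 with library totals, and the call was lost when close pairs were added together (adjusted p = 0.0659).

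FtPinG0003978100.01 (chromosome 3, 4706066 to 4708165) was matched as weakly (E value 1.2e-22). The pathway annotation gave it no epoxidase assignment and named it CTF2B, a flavin-dependent oxidoreductase of Arabidopsis, so its place in this pathway rests on the protein match alone. It had 1.93, 1.82 and 2.14 CPM in green fruit, 14.8, 23.2 and 23.0 at discoloration and 31.5, 23.4 and 31.7 at initial maturity. All later libraries were several times above all green fruit libraries. The rise to discoloration was 3.38 (SE 0.23, adjusted p = 2.2e-05) and that to initial maturity 3.88 (SE 0.23, adjusted p = 5.0e-06). With library totals these were 2.39 and 2.55. The step between the later stages was 0.50 (SE 0.20, adjusted p = 0.0812).

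As a share of the summed level per kilobase of the 3 epoxidase matches, the ABA1-annotated gene of chromosome 3 made up 71.2 ± 8.14% in green fruit (mean ± SD, n = 3), 67.8 ± 8.36% at discoloration and 23.8 ± 3.77% at initial maturity. The CTF2B-annotated gene went from 6.82 ± 1.48% to 27.3 ± 8.15% and 58.1 ± 4.24%. The full-strength match on chromosome 6 held 22.0 ± 9.47%, 4.88 ± 0.291% and 18.1 ± 0.476%. At initial maturity the gene without an epoxidase assignment was thus the most abundant of the 3 in each library.

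The NCED genes all belonged to the step that cuts the carotenoid. FtPinG0006853200.01 (chromosome 4, 51138728 to 51140476), matched to NCED1 of common bean and annotated as NCED9, an NCED that acts in developing seeds of Arabidopsis, was a gene of initial maturity. It had 3.96, 3.24 and 3.52 CPM in green fruit, 7.60, 2.35 and 3.83 at discoloration and 21.9, 22.6 and 25.6 at initial maturity. The 3 libraries of initial maturity agreed closely and lay far above the other 6. The rise from discoloration was 2.35 (SE 0.36, adjusted p = 0.00146) and that from green fruit 2.71 (SE 0.36, adjusted p = 1.9e-04). With library totals these were 2.02 and 1.38. The first interval gave 0.36 (SE 0.35, adjusted p = 0.445), which turned to -0.64 with library totals and to -0.20 without discoloration library 1.

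FtPinG0003131500.01 (chromosome 5, 8760679 to 8762396), annotated as NCED3, the stress-responsive NCED of Arabidopsis, rose earlier. Its levels were 3.36, 5.04 and 4.95 CPM in green fruit, 17.2, 9.86 and 11.2 at discoloration and 13.95, 20.7 and 12.04 at initial maturity. Green fruit lay below the later stages, which overlapped each other. The early rise was 1.52 (SE 0.29, adjusted p = 0.00327) and that over the whole interval 1.80 (SE 0.29, adjusted p = 6.0e-04). With library totals they were 0.49 (adjusted p = 0.149) and 0.43 (adjusted p = 0.195). Between the later stages the change was 0.29 (SE 0.28, adjusted p = 0.446), and -0.06 with library totals.

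FtPinG0000246400.01 (chromosome 1, 3725823 to 3727529), also annotated as NCED3, was at 4.29, 3.49 and 3.24 CPM in green fruit, 11.3, 6.04 and 6.17 at discoloration and 11.4, 28.7 and 12.04 at initial maturity. Library 2 of initial maturity was at 2.45 times the mean of its pair. From green fruit to initial maturity the gene rose by 2.24 (SE 0.40, adjusted p = 0.00106). With library totals the rise was 0.89, and with limma on log2(FPKM + 1) it was 0.66 (adjusted p = 0.0615). The later of the adjacent changes, 1.15 (SE 0.39, adjusted p = 0.0435), was lost under 11 of 18 alternatives (adjusted p of 0.0520 to 0.168), and was 0.58 without initial maturity library 2. The earlier change was 1.09 (SE 0.39, adjusted p = 0.0514).

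The share of each copy in the summed NCED level per kilobase shifted between stages. The chromosome 5 copy held 51.6 ± 3.35% at discoloration against 38.1 ± 7.89% in green fruit and 27.7 ± 2.85% at initial maturity. The chromosome 4 copy held 17.1 ± 4.08% at discoloration, its lowest, against 30.1 ± 3.28% in green fruit and 42.6 ± 10.4% at initial maturity. The chromosome 1 copy had 31.7 ± 4.95%, 31.4 ± 2.01% and 29.7 ± 9.06%, and its stages overlapped. Libraries of discoloration did not overlap with those of the other stages for the copies of chromosomes 4 and 5. All 3 gene models are as long as their span on the chromosome, which means that they hold no intron.

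**Figure D3:**
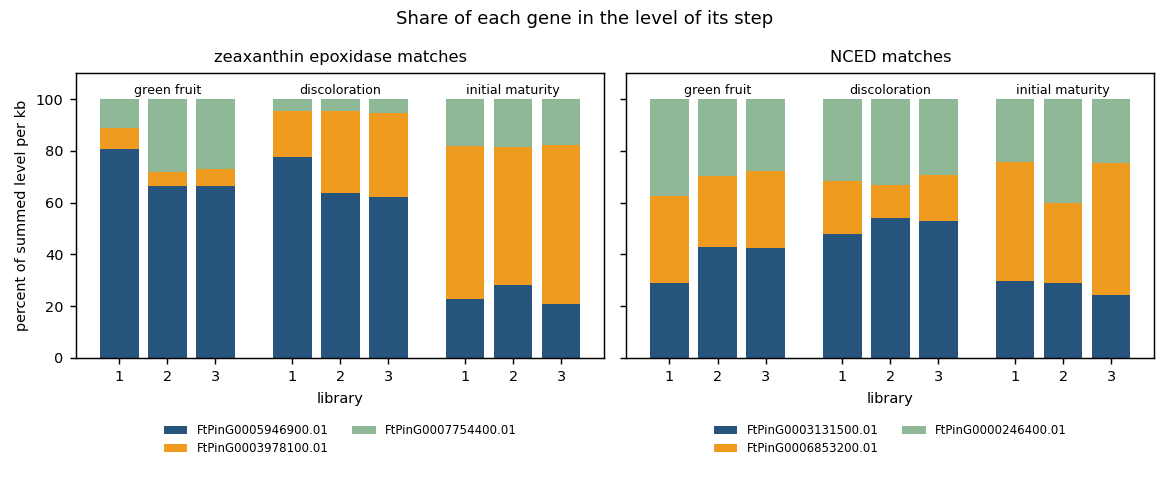
Share of each gene in the summed level per kilobase of its step, in percent, for each of the 9 libraries. Among epoxidase matches FtPinG0003978100.01 passes from 6.82% on average in green fruit to 58.1% at initial maturity. Among NCED matches FtPinG0003131500.01 is the largest in all libraries of discoloration.

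Xanthoxin dehydrogenase, the short-chain enzyme that makes abscisic aldehyde, had a single match with more than 1 count, FtPinG0000351900.01 (chromosome 6, 49482132 to 49488046). It had 21.9, 13.5 and 14.2 CPM in green fruit, 30.6, 32.8 and 31.6 at discoloration and 56.9, 71.7 and 59.4 at initial maturity. The stages did not overlap. Its FPKM values were 32.8, 24.6 and 25.8, then 25.2, 28.9 and 27.8, then 40.3, 45.4 and 41.0. On this scale only the last stage stood above the others. The log2 change to discoloration was 0.94 (SE 0.20, adjusted p = 0.00582) under TMM and -0.02 (adjusted p = 0.897) with library totals. The later step was 0.98 (SE 0.20, adjusted p = 0.00552), or 0.63 with library totals, and the whole rise 1.92 (SE 0.21, adjusted p = 6.1e-05), or 0.60. The deposited table gives this gene 1551 bases, but its FPKM values correspond to 1002 bases, and the shorter length was used for levels per kilobase.

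Abscisic-aldehyde oxidase, a molybdenum enzyme that makes the hormone itself, was matched by 2 neighbouring genes on chromosome 3 with no gene model in the 12020 bases between them. Both matched the Arabidopsis enzyme with an E value of 0. FtPinG0002397900.01 (52581747 to 52588299) carried most of the expression, with 87.0 to 96.3% of the summed level per kilobase in every library. It had 27.1, 52.5 and 51.8 CPM in green fruit, 376, 166 and 156 at discoloration and 187, 121 and 181 at initial maturity. Discoloration library 1 was 2.34 times the mean of its pair and the highest of the 9. The rise to discoloration was 2.41 (SE 0.41, adjusted p = 0.00201), lowest at 1.31 among the alternatives. Over the whole interval the change was 1.90 (SE 0.41, adjusted p = 0.00299), and 0.53 with library totals (adjusted p = 0.254). The later change of -0.52 (SE 0.39, adjusted p = 0.329) turned to 0.01 without discoloration library 1.

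FtPinG0002398100.01 (52562207 to 52569726) was low, with 4.32, 5.32 and 4.54 CPM in green fruit, 19.3, 7.37 and 6.45 at discoloration and 16.4, 15.4 and 17.7 at initial maturity. Its FPKM values were 1.46, 2.21 and 1.87, then 3.61, 1.48 and 1.29, then 2.63, 2.21 and 2.77. The rise over the whole interval was 1.80 (SE 0.38, adjusted p = 0.00259), or 0.45 with library totals (adjusted p = 0.269). The early change of 1.22 (SE 0.37, adjusted p = 0.0273) was 0.20 with library totals (adjusted p = 0.628), and its call was lost under 8 of 18 alternatives. Without discoloration library 1 the later change was 1.25 (adjusted p = 0.00225), against 0.58 (SE 0.37, adjusted p = 0.241) with all libraries. The close pair of discoloration is then left, and its small spread enters the lower of these p-values. Reads that fit both neighbouring copies could be counted for either, and the sources used here do not say how such reads were handled.

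Levels per kilobase set the steps side by side. Averaged over the 9 libraries, xanthoxin dehydrogenase was at 36.9 and the main aldehyde oxidase gene at 35.6 TMM-scaled CPM per kilobase, above 87.4% and 87.0% of all tested genes. The ABA1-annotated epoxidase match followed at 19.7 and the CTF2B-annotated match at 11.97. The NCED genes were at 6.36, 6.01 and 5.64, with percentiles of 46.2, 44.6 and 42.9, the full-strength epoxidase match at 4.55 and the minor aldehyde oxidase gene at 2.43. The 3 NCED means lay close together and their libraries overlapped. Summed over their copies, the NCED genes were at 6.73 to 6.83 in green fruit, 10.6 to 21.0 at discoloration and 27.3 to 41.8 at initial maturity. The early rise of this sum depended on the TMM scale. With library totals the log2 changes of the chromosome 5, 4 and 1 copies were 0.49, -0.64 and 0.10 in the first comparison. Over the whole interval they were 0.43, 1.38 and 0.89. The NCED sum was the lowest of the 4 steps in 8 of the 9 libraries. That ranking takes xanthoxin dehydrogenase at the 1002 bases that its FPKM values give. With the deposited 1551 bases, xanthoxin dehydrogenase would lie below the NCED sum in discoloration library 1. Its mean would then also lie below that of the main aldehyde oxidase gene. The ranking also counts the 2 weak epoxidase matches, which made up most of the epoxidase sum. The full-strength epoxidase match alone was at 1.80 to 6.71, below the NCED sum in every library. In initial maturity library 2 the NCED sum of 41.8 lay above the epoxidase sum of 30.7 and the aldehyde oxidase sum of 32.8.

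The NCED sum can be set against the genes that break the hormone down. The 8 genes matched to abscisic acid 8'-hydroxylases were all tested. Of these 3 rose and 2 fell in the first comparison, 0 rose and 3 fell in the second (edgeR, adjusted p under 0.05), and 3 rose and 4 fell over the whole interval. With library totals 2 rose and 3 fell, then 0 rose and 3 fell, and 2 rose and 5 fell over the whole interval. The shares of all genes called higher and lower in the 3 comparisons were 19.5% and 19.9%, 16% and 20.4%, and 28.3% and 32.5% under TMM, and 7.74% and 68.3%, 7.98% and 30.4%, and 8.86% and 73.7% with library totals. The same shares apply to the lists that follow. Under TMM the median log2 changes of the 8 hydroxylase matches were 0.45, -0.74 and -0.73. Their summed TMM-scaled CPM per kilobase were 28.2, 83.3 and 84.3 in green fruit, 70.03, 49.98 and 52.7 at discoloration and 79.1, 68.8 and 82.3 at initial maturity. The ratio of the NCED sum to this sum was 0.239, 0.0820 and 0.0806 in green fruit, 0.299, 0.213 and 0.234 at discoloration and 0.346, 0.607 and 0.349 at initial maturity. Initial maturity lay above the other stages in every library, while green fruit library 1 overlapped with discoloration. The ratio takes both sums from the same library and does not depend on scaling.

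**Figure D4:**
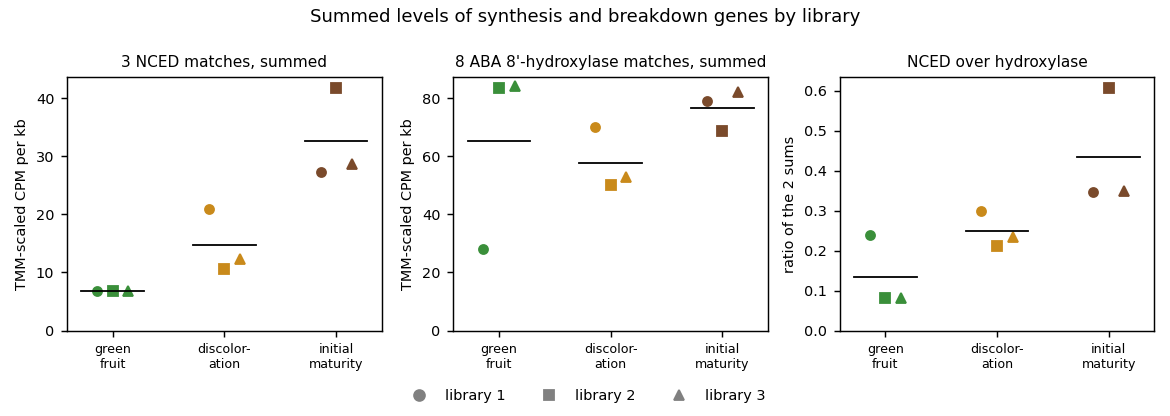
Summed TMM-scaled CPM per kilobase of the 3 NCED genes and of the 8 abscisic acid 8'-hydroxylase matches, and their ratio, for each library. Symbols mark library numbers and lines are means of 3 libraries. The sums depend on the scaling and the ratio does not. The ratio runs from 0.0806 to 0.239 in green fruit and from 0.346 to 0.607 at initial maturity.

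The make-up of the hydroxylase sum changed between stages. The size of that sum depended on the scaling, for with library totals it was 42.3, 152.7 and 153.2 in green fruit, 57.8, 44.2 and 46.5 at discoloration and 56.04, 43.7 and 56.8 at initial maturity. FtPinG0004462100.01, the match to hydroxylase 3, held 38.4 ± 4.75% of it in green fruit, 6.17 ± 0.610% at discoloration and 5.78 ± 2.77% in the last stage. Its CPM fell from 15.2, 55.9 and 56.95 in green fruit to 6.48, 5.60 and 5.19 at discoloration (log2 change -2.89, SE 0.56, adjusted p = 0.00349). The pair matched to hydroxylase 2 went from 31.2 ± 8.01% to 67.6 ± 8.76% and 88.0 ± 4.29%. Of this pair FtPinG0002387400.01 rose to discoloration by 2.16 (SE 0.34, adjusted p = 0.00126), or 1.13 with library totals (adjusted p = 0.0113). The other, FtPinG0003175900.01, had the highest mean of the 8 and 24.4 ± 9.36, 33.3 ± 4.17 and 56.9 ± 10.6 CPM. Its change over the whole interval, 1.22 (SE 0.29, adjusted p = 0.00540), turned to -0.15 with library totals.

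The remaining hydroxylase genes were lower on average over the 9 libraries, though not at each stage. In green fruit libraries 2 and 3 FtPinG0003196900.01 (17.4 and 17.5 CPM) and FtPinG0003614600.01 lay above FtPinG0002387400.01 (7.28 and 8.27 CPM). FtPinG0009034000.01, matched to hydroxylase 1, had 1, 3 and 2 counts in green fruit against 35, 57 and 32 at discoloration and 26, 6 and 34 at initial maturity, and its early rise passed the test (adjusted p = 5.9e-04). FtPinG0003614600.01, matched to hydroxylase 4, fell from 5.30 ± 1.41 CPM at discoloration to 0.276 ± 0.0966 at initial maturity (log2 change -4.24, SE 0.83, adjusted p = 0.00457). It was at 2.26, 17.8 and 16.1 CPM in green fruit, where the library apart was again the low one. FtPinG0004462100.01 and FtPinG0002387400.01 were chosen for naming after their values were seen.

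Upstream of the 9 genes, 16 of 17 carotenoid backbone genes were tested. Of these 3 rose and 3 fell in the first comparison, 3 rose and 7 fell in the second, and 3 rose and 9 fell over the whole interval, with medians of -0.27, -0.11 and -0.64. Scaling by library totals made these counts 2 and 12, 1 and 7, and 2 and 14, in the same order. The 12 of 16 genes lower in the first comparison stood against 68.3% of all genes, and the 14 lower over the whole interval against 73.7%. The largest rise was that of a beta-carotene 3-hydroxylase match (FtPinG0009283900.01), the enzyme that makes zeaxanthin, the substrate of the epoxidase. It went from 3.34 ± 0.428 to 14.01 ± 6.31 and 32.8 ± 5.04 CPM, with log2 changes of 2.07 (SE 0.29, adjusted p = 8.3e-04) and 1.23 (SE 0.28, adjusted p = 0.00960), or 1.07 and 0.89 with library totals. A zeta-carotene desaturase match (FtPinG0005580800.01), the most abundant of the list, had 32.3 ± 8.05, 21.2 ± 2.75 and 22.0 ± 2.63 CPM and fell in the first comparison by -0.61 (SE 0.21, adjusted p = 0.0425), a call lost under 9 alternatives. A distant match to phytoene dehydrogenase (FtPinG0002949100.01, E value 6.3e-12) fell between the later stages by -1.54 (SE 0.15, adjusted p = 2.7e-04). Its early rise of 0.67 (SE 0.14, adjusted p = 0.00587) turned to -0.32 with library totals.

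Violaxanthin de-epoxidase runs the epoxidase reaction backwards in light-exposed plastids. Its full-strength match, FtPinG0003092500.01, had 26.9 ± 17.8, 10.2 ± 1.52 and 2.04 ± 0.419 CPM and fell between the later stages by -2.32 (SE 0.59, adjusted p = 0.0143). A weak match of the same name, FtPinG0008884900.01 (E value 3.5e-09), rose at that step by 2.91 (SE 0.32, adjusted p = 4.2e-04). These 2 were the whole of that list, and 0 of them passed the test in the first comparison, where their unadjusted p-values were 0.0250 and 0.0366 and where 1 was called lower with library totals.

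Of 5 other carotenoid cleavage dioxygenases, which cut carotenoids to products other than abscisic acid, 1 rose and 0 fell in the first comparison, 1 rose and 1 fell in the second, and 2 rose and 2 fell over the whole interval, or with library totals 0 and 3, 1 and 1, and 0 and 3 (68.3%, 30.4% and 73.7% of all genes lower). A match to dioxygenase 1 (FtPinG0005817900.01) had 22.9 ± 4.41, 46.2 ± 7.83 and 69.9 ± 21.0 CPM, and its early rise of 1.01 (SE 0.24, adjusted p = 0.0101) was 0.00 with library totals (adjusted p = 0.991). A match to dioxygenase 4 (FtPinG0007345500.01), which degrades carotenoids in plastids, fell between the later stages from 4.85 ± 2.42 to 0.850 ± 0.0444 CPM (log2 change -2.51, SE 0.59, adjusted p = 0.0102). A match to dioxygenase 7 (FtPinG0007407900.01), of the strigolactone pathway, rose at that step from 2.22 ± 0.228 to 4.52 ± 0.407 CPM (log2 change 1.03, SE 0.22, adjusted p = 0.00722).

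Aldehyde oxidase works only with a sulfurated molybdenum cofactor. Of 12 cofactor genes 11 were tested, and 3 rose and 1 fell in the first comparison, 1 rose and 0 fell in the second, and 3 rose and 3 fell over the whole interval. By library totals it was 2 and 8, 0 and 3, and 2 and 9, where 68.3%, 30.4% and 73.7% of all genes were called lower. A pair of neighbouring genes on chromosome 2 matched the cofactor sulfurase, which activates aldehyde oxidase in the last step of cofactor maturation. FtPinG0008769100.01 (12084700 to 12087563) went from 7.90 ± 1.73 to 52.9 ± 3.74 and 69.5 ± 2.88 CPM, and FtPinG0008768900.01 (12072460 to 12084093) from 10.6 ± 1.54 to 53.9 ± 9.43 and 67.3 ± 4.55. Their early log2 changes were 2.74 (SE 0.18, adjusted p = 2.0e-05) and 2.34 (SE 0.18, adjusted p = 4.0e-05), and 1.77 and 1.36 with library totals, past the threshold under every alternative tried. The most abundant cofactor gene, a molybdopterin synthase catalytic subunit match (FtPinG0000489300.01), had 87.5 ± 15.4, 87.7 ± 17.5 and 102 ± 19.1 CPM and passed no test under TMM. With library totals it was called lower in the first comparison (log2 change -0.998, adjusted p = 0.00623) and over the whole interval (-1.15, adjusted p = 0.00230).

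Further genes handle or respond to the hormone. Of 7 transport genes 6 were tested, and 2 rose and 2 fell in the first comparison, 1 rose and 2 fell in the second, and 3 rose and 2 fell over the whole interval, or with library totals 1 and 4, 0 and 3, and 2 and 3 (again against 68.3%, 30.4% and 73.7% of all genes lower). A distant match to the transporter ABCG31 (FtPinG0009093300.01, E value 5.3e-08) had 73.2 ± 1.77, 225 ± 3.98 and 241 ± 4.61 CPM and rose early by 1.62 (SE 0.16, adjusted p = 1.4e-04), or 0.63 with library totals. Of the matches to NPF4.6, an abscisic acid importer of Arabidopsis, FtPinG0003497500.01 fell in both steps (log2 changes -1.92 and -3.15, adjusted p = 0.0380 and 0.0156, lost under 10 and 4 of 18 alternatives) and FtPinG0000179900.01 rose in the first (2.04, SE 0.53, adjusted p = 0.0142), a call lost with library totals (adjusted p = 0.0635). The only conjugation gene, a match to UGT71C5 (FtPinG0001032100.01), stayed at 1.53 to 2.50 CPM on average and passed no test under TMM, but was called lower in all 3 comparisons with library totals.

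Of 13 genes matched to ABSCISIC ACID-INSENSITIVE proteins, regulators of the response in seeds, 5 rose and 2 fell in the first comparison, 2 rose and 4 fell in the second, and 6 rose and 4 fell over the whole interval. With library totals the counts were 5 and 5, 1 and 4, and 3 and 6. Of all genes 39.5%, 36.4% and 60.8% were called under TMM and 76%, 38.4% and 82.6% with library totals. The match to ABI5 itself (FtPinG0003523300.01), a transcription factor of late seed maturation, had 39.96, 12.5 and 12.8 CPM in green fruit, 158, 131 and 124 at discoloration and 291, 314 and 293 at initial maturity. Its early rise was 2.66 (SE 0.44, adjusted p = 0.00163), or 1.74 with library totals. An ABI5-like match (FtPinG0001379200.01, E value 1.6e-08) fell from 510, 97 and 57 counts in green fruit to 3, 1 and 2 at discoloration (adjusted p = 0.00309).

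The 6 genes that share a name with the 9 but were not among them had low counts or weak matches. FtPinG0009412200.01, a full-strength NCED match on chromosome 8, had 8, 3 and 8 counts in green fruit, 3, 14 and 6 at discoloration and 40, 29 and 41 at initial maturity, and rose at the later step (adjusted p = 0.00597). It thus had its highest counts at the same stage as the chromosome 4 copy, at a level of 2.34 ± 0.442 against 23.4 ± 1.97 CPM. FtPinG0002397300.01, the next aldehyde oxidase match along chromosome 3, had 3, 3 and 4 counts, then 94, 13 and 7, then 34, 4 and 57, and its libraries apart were far from their pairs in the later stages. FtPinG0006344400.01, an epoxidase match with an E value of only 2.7e-07, fell over the whole interval from 14.6 ± 8.47 to 0.830 ± 0.175 CPM (adjusted p = 2.0e-04). FtPinG0003999400.01, another weak epoxidase match, passed no test under TMM, but over the whole interval was called lower with library totals (log2 change -1.73, adjusted p = 0.0410). FtPinG0006298400.01, a second xanthoxin dehydrogenase match, had 1 count in all, and FtPinG0001660900.01, a further aldehyde oxidase match, had 0 counts in the 9 libraries.

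The deposited genotype calls add 1 feature of an NCED gene, which is the same in all 9 libraries. Whether it comes from the variety or from the reference sequence was not tested, nor was its effect on the protein. FtPinG0003131500.01 held 9 insertions or deletions and 1 single-base variant called homozygous for the alternate allele in all 9 libraries. The insertions and deletions were spread over 1309 bases of the gene, from position 8760968 to 8762276. By the first alternate allele each was 1 or 2 bases long, so that none had a length that is a multiple of 3. The site at position 8760968 had several alternate alleles. The lengths of the first alleles summed to a net loss of 2 bases. Of 31839 gene models 1413 had at least 1 such insertion or deletion, with a median of 2, and 86 had 9 or more. The ABA1-annotated epoxidase match had 2 (a loss and a gain of 1 base, within 53 bases), and the other 7 genes had none. The minor aldehyde oxidase gene had 6 single-base sites, none called alternate in all libraries, and 4 of them were heterozygous in 1 library.

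By the likeness of levels over the 9 libraries, the genes nearest to the leading gene of each step were the following, among 22135 other tested gene models. These are correlations of log2 CPM across libraries that differ mainly by stage, given as a description. For the ABA1-annotated epoxidase match they were matches to NRT1/PTR FAMILY 6.3 (FtPinG0005129800.01, r = 0.992), a leucine-rich repeat kinase (FtPinG0003549800.01, r = 0.989) and NAC transcription factor 56 (FtPinG0002173000.01, r = 0.987). The nearest to the chromosome 5 NCED gene were matches to GATA transcription factor 26 (FtPinG0007700500.01, r = 0.992), the transporter arsB (FtPinG0006104000.01, r = 0.990) and an F-box/kelch-repeat protein (FtPinG0009412000.01, r = 0.987). Xanthoxin dehydrogenase lay nearest to a ubiquitin-conjugating enzyme (FtPinG0006436300.01, r = 0.997), SKIP11 (FtPinG0004668900.01, r = 0.997) and beta carbonic anhydrase 2 (FtPinG0001326500.01, r = 0.997). The main aldehyde oxidase gene lay nearest to alpha-mannosidase (FtPinG0003795400.01, r = 0.991), protein O-glucosyltransferase 1 (FtPinG0004145500.01, r = 0.990) and caffeic acid 3-O-methyltransferase 1 (FtPinG0004302800.01, r = 0.988).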

How the data were processed

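The authors deposited read counts per gene for 9 seed libraries, FPKM values for the same genes, and a gene table with log2 ratios, adjusted p-values, lengths, positions and protein matches, per the file headers. Bowtie2 2.0.6 and TopHat2 2.0.12 are named in the submitters' processing notes. The sources used here name no counting program, genome build or test behind the authors' p-values. Of 224086 FPKM values above 0, 90.8% equalled count over length and library total within a relative tolerance of 0.001, so they carry no composition correction. The deposited variant tables hold genotype calls, with 9 columns in each that match no sample and were not used. The kit does not mark strand. None of the 9 genes overlaps another gene model.

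Counts were tested with edgeR 4.0.16 (glmQLFit and glmQLFTest, TMM scaling, filterByExpr with a minimum count of 10, limma 3.58.1, R 4.3.3). All 9 libraries entered 1 fit. The filter left 23631 genes, all 9 among them, and p-values were Benjamini-Hochberg adjusted over these, with a threshold of 0.05. The SE is the log2 change over the square root of its F statistic. The script was tested on simulated data with the same spread for all genes, equal numbers of rises and falls and no library apart. That test does not bear on the choice of scaling or on the libraries apart. No label says that each library is a separate plant, so the p-values cover the spread among libraries, part of which may be technical. The authors' own log2 ratios were used only to check directions. For the 9 genes they lay near the TMM values. For FtPinG0000351900.01 in the first comparison their ratio was 0.93, against 0.94 under TMM and -0.02 with library totals. Their adjusted p-values were above 0.05 for some changes called here. These were the early change of FtPinG0002398100.01, the later and whole-interval changes of FtPinG0000246400.01 and the whole-interval change of FtPinG0005946900.01.

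From each pathway list, matched by name, the gene with the highest mean CPM and the 2 with the largest called change in an adjacent comparison were named. The genes and lists were chosen with earlier results of these data known. Alternatives were DESeq2 1.42.0 size factors, library totals, no filter, 2 stages in the fit, a replicate block, limma on log2(FPKM + 1) or log2(FPKM + 0.1), leaving out each library, adding the close pairs, and leaving out the 3 libraries apart.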

Additional observations from a re-analysis of the deposited data

How the results depend on the processing

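Of 486 values of the 9 genes under 18 alternatives, 405 kept their direction and side of the threshold, 49 lost the call, 15 gained it and 17 changed sign. With library totals, limma on log2(FPKM + 1) and limma on log2(FPKM + 0.1), called genes went from 6 to 3, 3 and 3 in the first comparison, from 5 to 3, 3 and 3 in the second, and from 8 to 5, 4 and 4 over the whole interval. All-gene calls in the first comparison went from 9326 to 17967, 17988 and 17763. These were 76%, 76.1% and 75.2% of all genes. In the second comparison the same fits called 38.4%, 33.6% and 38.6% of all genes. Over the whole interval they called 82.6%, 82.7% and 82.7%. Calls that were higher in the later stage made up 49.5%, 43.9% and 46.6% of all calls under TMM and 10.2%, 20.8% and 10.7% with library totals. Adding the close pairs gave 8006 instead of 15460 genes differing over the stages, 2877, 1663 instead of 8608, and 9183 instead of 14361, and 2 of the 9 genes in the second comparison. Without the 3 libraries apart there were 17730 and 16195 genes in the first and second comparisons, and 9 of the 9 genes in the second. Leaving out 1 library gave 5 to 8, 3 to 5 and 8 to 8 of the 9 genes in the 3 comparisons, 8 to 9 over the stages, and 6735 to 12436, 5325 to 12190, 12438 to 16664 and 13522 to 18180 of all genes. The cause was not tested.

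Signs changed as follows under library totals, limma with 1 and limma with 0.1. In the first comparison FtPinG0000351900.01 gave -0.023, -0.012 and -0.012, FtPinG0006853200.01 -0.64, -0.54 and -0.75 (and from -0.20 without discoloration library 1 to 0.68 over the left-out libraries, and -0.13 without the 3 libraries), FtPinG0002949100.01 -0.32, -0.31 and -0.33, and FtPinG0005817900.01 -0.0032 with library totals only. In the second FtPinG0003131500.01 gave -0.064, -0.051 and -0.058, and FtPinG0002397900.01 0.014 without discoloration library 1 and 0.19 without the 3 libraries. Over the whole interval FtPinG0007754400.01 gave -1.01, -0.67 and -0.74 (and from -0.011 without green fruit library 1 to 0.67 over the left-out libraries), and FtPinG0003175900.01 -0.15, -0.049 and -0.045.

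Deviations from the stage mean had r from -0.15 to 0.19 between same-numbered libraries, over 0.1 in 3 of 9 pairs. Between libraries of unlike number r ran from -0.20 to 0.18. With 3 libraries per stage and 1 of them apart, these values cannot decide whether numbers pair the samples. Numbers were not taken to pair samples because no label ties a number to a plant. With a replicate block 5, 4 and 8 of the 9 genes were called, against 35.9%, 33.2% and 58.7% of all genes. The early change of FtPinG0002398100.01 then had an adjusted p of 0.0539 and the late change of FtPinG0000246400.01 one of 0.0648. The NCED genes had 53 to 454 counts per library, which limits the precision of their changes.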
